A study of Danio rerio with 7 samples.

Results

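Open chromatin around 39 zebrafish genes for transcription factors of the forebrain, the eye and the midbrain was compared between *kdrl*:GFP+ and *kdrl*:GFP- cells. The genes were taken from a fixed list of names, and a peak was assigned to a gene when that gene was printed as its nearest promoter in the deposited table of differential ATAC-seq peaks. Of the 44025 peaks in the table, 311 had such a gene as nearest promoter, and 35 of the 39 genes had at least 1. The names *en1a*, *en2a*, *en2b* and *nkx2.4b* were not printed in the table and are taken up under their other names below.

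Homeodomain, LIM-homeodomain, T-box, forkhead and basic helix-loop-helix factors divide the anterior neural plate into the eye field, telencephalon, hypothalamus, diencephalon and midbrain. Many of their genes lie in gene-poor stretches of the genome with enhancers far from the promoter, each active in a part of the brain or retina. Endothelial cells line the vessels and arise from mesoderm, where ETS-family factors direct their differentiation.

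All samples came from wild type Tg(*kdrl*:GFP)s843 embryos, in which the *kdrl* promoter drives GFP in endothelium. The labels give 3 libraries of *kdrl*:GFP+ cells and 3 of *kdrl*:GFP- cells. Each came from 40000 to 50000 sorted cells at 26 to 27 h post fertilization (hpf). By the study's account, the *kdrl*:GFP+ cells were the brighter part of the GFP-positive gate. The *kdrl*:GFP- cells were the non-endothelial cells of whole embryos. A genomic DNA library from 30000 cells of embryos at 28 to 30 hpf served as the control. ATAC-seq measures open chromatin by how often a transposase inserts adapters into a region. The values are concentrations, the log2 of the mean normalized reads of a population over a peak. The difference is the concentration in *kdrl*:GFP+ cells minus that in *kdrl*:GFP- cells, so a difference of 3 is an 8-fold ratio. Each population has 1 pooled value per peak, so no spread between libraries, test or depth per library can be given. Which libraries entered each mean is not stated in the table. The study states that outlying *kdrl*:GFP+ libraries were left out, and that it analysed fewer *kdrl*:GFP+ than *kdrl*:GFP- libraries. The numbers it gives differ from those of the labels. The endothelial mean may thus rest on fewer libraries than the labels list and on fewer than the *kdrl*:GFP- mean. The *kdrl*:GFP- cells were a mixture of neural and other cells, and a change in how many cells had a region open cannot be told apart from a change in how open it was in each cell.

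Peaks nearest to the brain and eye factors were mostly less open in the endothelial cells. Of the 311 peaks, 270 (86.8%, 95% Wilson interval 82.6 to 90.1%, for counting error only) had a lower concentration in *kdrl*:GFP+ cells, against 55.3% of all peaks in the table. The other 41 (13.2%) were higher in *kdrl*:GFP+ cells, against 44.7% of all peaks. The median difference was −2.06 (quartiles −3.19 and −1.34), and that of all peaks was −1.19. Peaks that share a gene are not independent of each other, so the interval is a description of this set of peaks.

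The large differences ran the same way. A difference below −3 was found at 91 peaks (29.3%), against 13.3% of all peaks. A difference above 3 was found at 6 peaks (1.93%), against 17.8% of all peaks. Among lower peaks alone, 33.7% of those at the factors were below −3, compared with 24.0% of the lower peaks of the whole table, with medians of −2.36 and −2.08. Among higher peaks alone, the median was 1.97 at the factors and 2.53 in the whole table. The table holds only peaks that the authors called differential, and its smallest difference in either direction was 0.76. Regions open to a like degree in both populations are therefore not seen here.

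**Figure D1:**
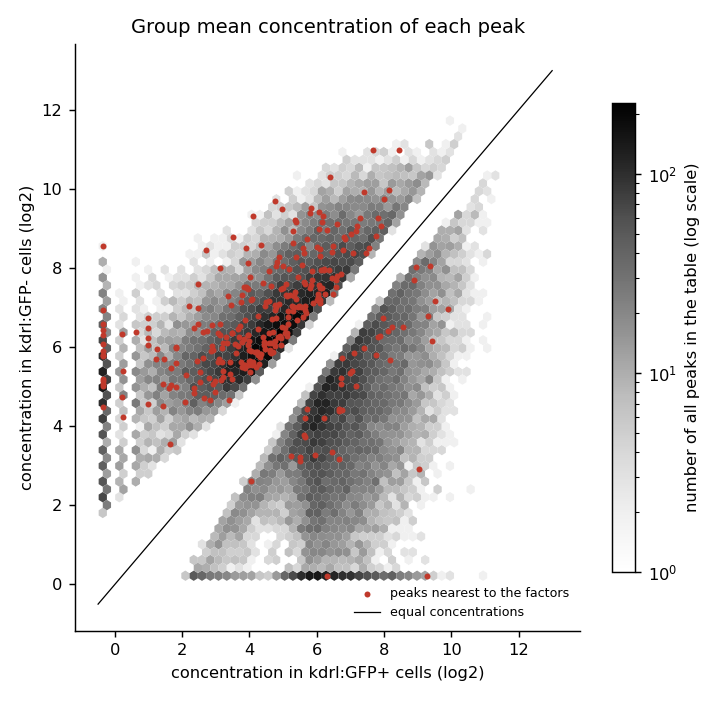
Mean concentration (log2) of each peak, with *kdrl*:GFP+ cells on the x axis and *kdrl*:GFP- cells on the y axis. Grey hexagons count all 44025 peaks on a log colour scale and red points are the 311 peaks nearest to the brain and eye factors, of which 270 lie above the line of equal concentrations. The empty band along the line is where no differential peak was called, and the column of points at the left edge holds peaks with the lowest *kdrl*:GFP+ value, −0.36.

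The median concentration over the 311 peaks was 4.71 in *kdrl*:GFP+ cells and 6.45 in *kdrl*:GFP- cells, whereas over all peaks it was 5.75 in *kdrl*:GFP+ cells and 5.74 in *kdrl*:GFP- cells. Per kilobase of peak, the medians at the factors were 5.58 in *kdrl*:GFP+ cells and 7.49 in *kdrl*:GFP- cells, and those of all peaks were 6.62 for *kdrl*:GFP+ and 6.88 for *kdrl*:GFP-. The factors' peaks thus had a lower level than the table in the endothelial cells and a higher level in the other cells. A lower peak was not always a closed one. Of the 270 lower peaks, 57 (21.1%) still had a concentration in *kdrl*:GFP+ cells above the median of all peaks, and the same held for 22.9% of all lower peaks in the table. At the other end, 14 peaks (4.50%) had the lowest concentration of the *kdrl*:GFP+ column, −0.36, and 2 (0.643%) that of the *kdrl*:GFP- column, 0.22. Over the table these shares were 3.29% for *kdrl*:GFP+ and 3.4% for *kdrl*:GFP- cells. The log2 differences printed for such peaks, and any ranking by them, depend on where the lowest value was set. No linear fold is given for them.

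By gene, 17 of the 35 factors had only lower peaks and 18 had at least 1 higher peak. The median difference was below 0 for 34 of them, *dlx6a* with its single peak being the exception, and below the median of all peaks for 33, all but *dlx6a* and *dlx1a*. The share of all genes with a median below that of all peaks was not computed. A peak below −3 was found at 29 genes (82.9%) and a peak above 3 at 4 (11.4%). Of the 9030 gene symbols in the table, 48.5% had a median below 0, 23.7% had only lower peaks, 32.2% had a peak below −3 and 46.8% a peak above 3. These shares depend on the number of peaks per gene, which had a median of 3 over the table. Among the 35 factors the number of peaks ran from 1 to 26, with a median of 6, and the 11 genes with 10 or more peaks held 204 of the 311.

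**Figure D2:**
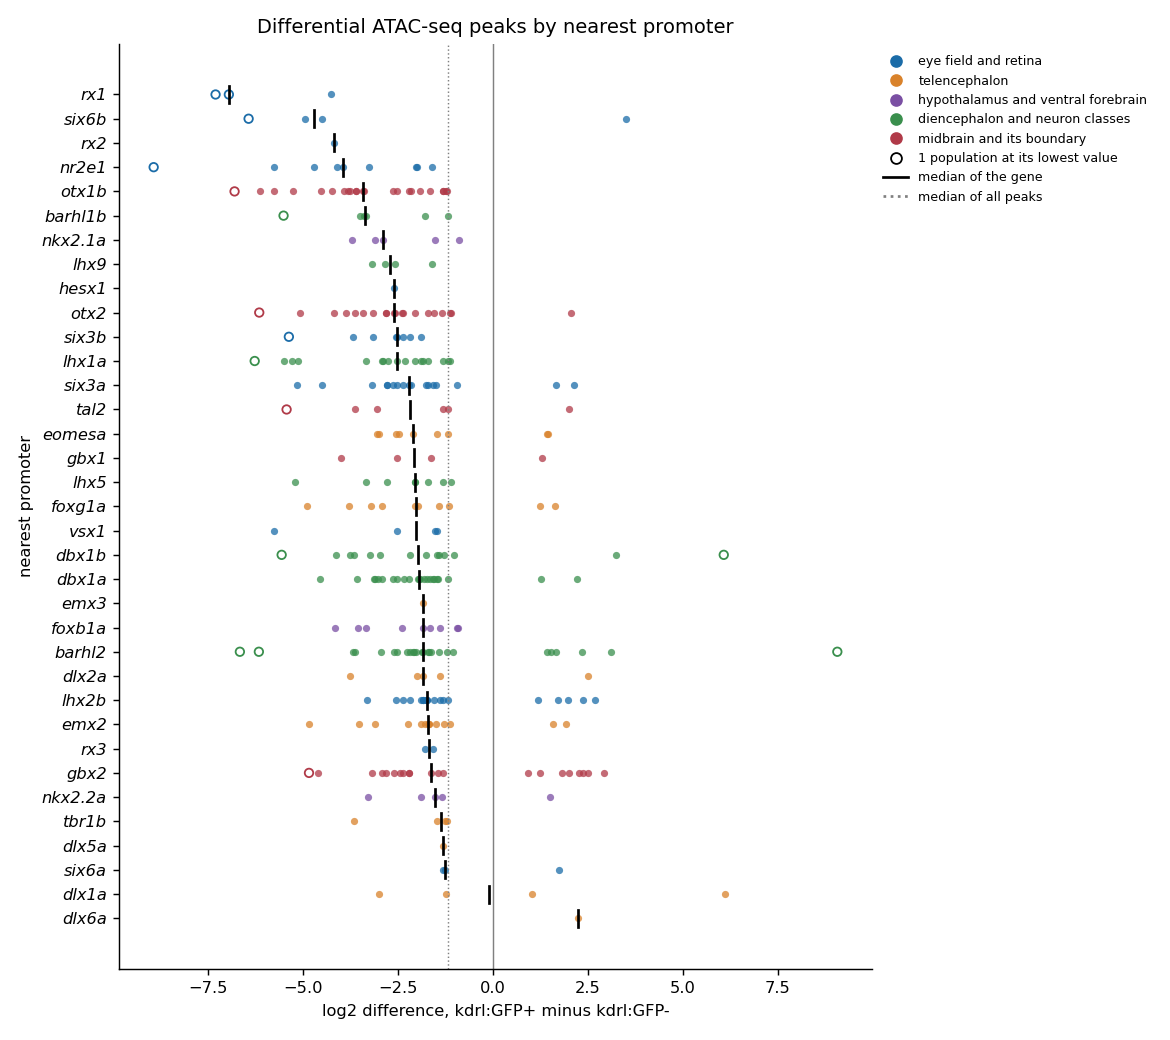
Difference in concentration (log2, *kdrl*:GFP+ minus *kdrl*:GFP-) of each peak on the x axis, with 1 row per gene, ordered by the gene's median (black bar). Colours mark the brain region of the gene, open circles are peaks where 1 population is at its lowest value, and the dotted line is the median of all peaks, −1.19. All medians but that of *dlx6a* lie left of 0, from −6.95 at *rx1* to −0.11 at *dlx1a*.

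For description the genes were sorted here into regions, which the labels do not give. The genes sorted under eye field and retina come first. They had 71 peaks, of which 62 were lower in *kdrl*:GFP+ cells, with a median of −2.17. The *rx* genes encode retinal homeobox factors at the head of eye formation. The gene *rx1* (chr22:4640467-4647985, minus strand, Zv9) had 3 peaks, all lower, with the lowest median of all 35 genes, −6.95. Its promoter peak (chr22:4647815-4648277) had a concentration of −0.36 in *kdrl*:GFP+ cells, the lowest value, and 6.59 in *kdrl*:GFP- cells. In intron 2 of 3 (chr22:4645404-4645946) the values were −0.36 in *kdrl*:GFP+ cells against 6.94 in *kdrl*:GFP- cells, a difference of −7.30. The peak at the end of the transcript still had 4.34 in *kdrl*:GFP+ cells, against 8.60 in *kdrl*:GFP- cells. The promoter and intron of *rx1* were thus at the bottom of the scale in endothelial cells, while its 3′ peak was not.

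The relatives of *rx1* differed from it in size. The only peak of *rx2* lay 7.54 kb upstream and had 3.96 in *kdrl*:GFP+ cells against 8.14 in *kdrl*:GFP- cells, a difference of −4.19. For *rx3*, which zebrafish need to form eyes, both peaks were lower by less, with differences of −1.58 at the promoter (6.38 in *kdrl*:GFP+ cells against 7.96 in *kdrl*:GFP- cells) and −1.78 at 2.95 kb upstream (4.57 in *kdrl*:GFP+ cells against 6.36 in *kdrl*:GFP- cells). The second of these peaks lies in intron 1 of the neighbouring gene *arid6*.

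The lowest difference of all 311 peaks was at *nr2e1* (chr20:32476279-32485277, minus strand), an orphan nuclear receptor that keeps neural stem cells dividing in mice. All of its 9 peaks were lower in *kdrl*:GFP+ cells, with a median of −3.94. The peak 5.88 kb upstream (chr20:32490620-32491685) had −0.36, the lowest value, in *kdrl*:GFP+ cells and 8.57 in *kdrl*:GFP- cells, a difference of −8.93. The next peak out, 9.40 kb upstream, had 2.70 in *kdrl*:GFP+ cells against 8.46 in *kdrl*:GFP- cells. By contrast the *nr2e1* promoter itself was open in both populations, at 6.80 in *kdrl*:GFP+ cells against 8.80 in *kdrl*:GFP- cells, a difference of −2.00. The upstream peaks within 12.3 kb of this gene thus differed more than its promoter did. The intron 1 peak also differed more (−3.94), the peak 26.7 kb upstream about as much (−2.03) and the intron 4 peak less (−1.61).

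The *six3* and *six6* genes encode sine oculis-type homeodomain factors of the eye and forebrain. The duplicates *six3a* and *six3b* had 17 and 8 peaks, with 15 and 8 lower and medians of −2.20 and −2.53. The most negative peak of *six3a*, 70.0 kb upstream, had 0.23 in *kdrl*:GFP+ cells against 5.39 in *kdrl*:GFP- cells. The *six3a* promoter had 7.55 in *kdrl*:GFP+ cells against 8.50 in *kdrl*:GFP- cells, a difference of −0.95, the smallest of the lower promoter peaks. At *six3b* the largest difference, −5.37, was 7.82 kb upstream, with the lowest value, −0.36, in *kdrl*:GFP+ cells against 5.01 in *kdrl*:GFP- cells.

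The duplicates *six6a* and *six6b* were less alike. Of the 3 peaks of *six6a*, 2 were lower, with differences of −1.27 and −1.32, and its largest difference was a higher peak 15.4 kb upstream, at 8.25 in *kdrl*:GFP+ cells against 6.51 in *kdrl*:GFP- cells (1.75). At *six6b*, 3 of 4 peaks were lower, with differences of −6.43, −4.94 and −4.50. The most negative, 2.73 kb upstream, had −0.36 in *kdrl*:GFP+ cells against 6.07 in *kdrl*:GFP- cells. The fourth *six6b* peak (chr20:20643128-20643494) was higher, at 6.67 in *kdrl*:GFP+ cells against 3.16 in *kdrl*:GFP- cells, a difference of 3.51. It lies 37.3 kb upstream of *six6b*, and the body of *ppm1ab*, 29.6 kb away, is nearer to it.

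Among the remaining eye genes, *vsx1*, a homeobox gene of retinal bipolar cells, had 4 peaks, all lower. Its promoter had 6.07 in *kdrl*:GFP+ cells against 7.58 in *kdrl*:GFP- cells (−1.52), and the peak in exon 5 of 5 had 0.63 in *kdrl*:GFP+ cells against 6.39 in *kdrl*:GFP- cells (−5.77). The single peak of *hesx1*, a homeobox repressor of the anterior neural plate and pituitary, lay 1.02 kb upstream at 2.53 in *kdrl*:GFP+ cells against 5.13 in *kdrl*:GFP- cells (−2.61). For *lhx2b*, a LIM-homeodomain gene of the eye and forebrain, 14 of 19 peaks were lower, with a median of −1.73. The peaks of *lhx2b* included some with high levels in both populations. The peak 55.1 kb downstream had 7.66 in *kdrl*:GFP+ cells against 10.99 in *kdrl*:GFP- cells, the largest difference of the gene (−3.32). The 5 higher *lhx2b* peaks all lay upstream, between 22.9 and 121 kb, among 9 lower ones on that side. The highest of them, 45.8 kb upstream (chr8:3206001-3206343), had 5.96 in *kdrl*:GFP+ cells against 3.27 in *kdrl*:GFP- cells (2.69).

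The telencephalic genes, which pattern the pallium and subpallium, had 49 peaks with 39 lower and a median of −1.68, the least negative of the 5 regions. The gene *foxg1a* encodes a forkhead factor that marks the telencephalon, and 8 of its 10 peaks were lower (median −2.02). Its most negative peak, 23.0 kb upstream, had 3.12 in *kdrl*:GFP+ cells against 8.0 in *kdrl*:GFP- cells (−4.88). The homeobox gene *emx2* of the dorsal telencephalon had 12 lower peaks of 14 (median −1.70). Its peak at the end of the transcript had 2.2 in *kdrl*:GFP+ cells against 7.05 in *kdrl*:GFP- cells (−4.85). The single peak of *emx3*, 1.72 kb upstream, was open in both populations, at 7.21 in *kdrl*:GFP+ cells against 9.07 in *kdrl*:GFP- cells (−1.85).

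The T-box genes *eomesa* and *tbr1b* are used by successive stages of glutamatergic neurons in the mouse cortex. At *eomesa*, 7 of 9 peaks were lower, with a median of −2.11, and the most negative, 71.4 kb upstream, had 5.01 in *kdrl*:GFP+ cells against 8.06 in *kdrl*:GFP- cells (−3.05). All 4 peaks of *tbr1b* were lower, with a median of −1.36, and the largest difference was in exon 4 of 6, at 1.43 in *kdrl*:GFP+ cells against 5.07 in *kdrl*:GFP- cells (−3.65). No peak of either gene was at the lowest value of a population.

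The *dlx* genes encode homeodomain factors of the subpallium and its GABAergic neurons and lie in convergent pairs that share enhancers. The pair *dlx1a* and *dlx2a* on chromosome 9 had 4 and 5 peaks, with 2 and 4 lower and medians of −0.11 and −1.84. The *dlx1a* peak 50.8 kb upstream (chr9:3333444-3334060) was high in endothelial cells, with 9.03 in *kdrl*:GFP+ cells against 2.93 in *kdrl*:GFP- cells, a difference of 6.10. The body of *hat1* lies 22.7 kb from this peak and that of *dlx1a* 50.5 kb from it, so the assignment to *dlx1a* rests on the distance to promoters alone. At *dlx2a* the most negative peak, 13.3 kb upstream, had 2.61 in *kdrl*:GFP+ cells against 6.38 in *kdrl*:GFP- cells (−3.77), and the only higher one, 37.4 kb upstream, had 8.18 in *kdrl*:GFP+ cells against 5.68 in *kdrl*:GFP- cells (2.51). The pair *dlx5a* and *dlx6a* on chromosome 19 had 1 peak each. The *dlx5a* promoter had 6.17 in *kdrl*:GFP+ cells against 7.49 in *kdrl*:GFP- cells (−1.32), while the *dlx6a* peak, 28.2 kb upstream, had 6.65 in *kdrl*:GFP+ cells against 4.39 in *kdrl*:GFP- cells (2.25).

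The genes of the hypothalamus and ventral forebrain had 19 peaks, of which 18 were lower in *kdrl*:GFP+ cells, with a median of −1.85. The gene printed as *nkx2.1a* had 5 peaks, all lower (median −2.88). Its RefSeq accession now carries the symbol *nkx2.4b*, so these 5 peaks are those of the gene now called *nkx2.4b*, a hypothalamic and thyroid NK2 homeobox gene. Of these, 3 lie inside the neighbouring gene *xrn2*, and they had the largest differences. The peak in *xrn2* intron 29 of 30, 15.5 kb downstream of the *nkx2.1a* promoter, had 3.83 in *kdrl*:GFP+ cells against 7.52 in *kdrl*:GFP- cells (−3.70).

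The gene *nkx2.2a* encodes an NK2 factor of the ventral neural tube that responds to Hedgehog signalling, and 4 of its 5 peaks were lower (median −1.52). Its most negative peak, 16.9 kb upstream, had 3.06 in *kdrl*:GFP+ cells against 6.35 in *kdrl*:GFP- cells (−3.29). The 3 peaks in intron 1 were lower by less, and the peak in exon 3 was the higher one, at 6.72 in *kdrl*:GFP+ cells against 5.21 in *kdrl*:GFP- cells (1.51). For *foxb1a*, a forkhead gene of the hypothalamus and hindbrain, all 9 peaks were lower (median −1.85). They lay 2.77 to 71.1 kb downstream of the promoter, and the most negative, 18.6 kb away, had 1.83 in *kdrl*:GFP+ cells against 5.98 in *kdrl*:GFP- cells (−4.15).

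The genes of the diencephalon and its neuron classes had 98 peaks, of which 88 were lower, with a median of −2.06. The LIM-homeodomain genes *lhx1a* and *lhx5* guide neuronal differentiation. All 17 *lhx1a* peaks and all 8 *lhx5* peaks were lower, with medians of −2.52 and −2.06. The most negative *lhx1a* peak, 102 kb upstream, had −0.36 in *kdrl*:GFP+ cells against 5.91 in *kdrl*:GFP- cells (−6.27). The most negative of *lhx5*, 32.4 kb upstream, had 4.1 in *kdrl*:GFP+ cells against 9.32 in *kdrl*:GFP- cells (−5.22). For *lhx9*, a LIM-homeodomain gene of the thalamus, all 4 peaks were lower (median −2.70), with −1.60 at the promoter (5.31 in *kdrl*:GFP+ cells against 6.91 in *kdrl*:GFP- cells) and −3.18 at 4.62 kb upstream (2.12 in *kdrl*:GFP+ cells against 5.30 in *kdrl*:GFP- cells). None of the 29 peaks of *lhx1a*, *lhx5* and *lhx9* was higher in the endothelial cells, against 44.7% of all peaks. The LIM-homeodomain gene *lhx2b*, described with the eye genes, had 5 higher peaks of 19.

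The duplicates *dbx1a* and *dbx1b* encode homeodomain factors of interneuron progenitors. They had 23 and 14 peaks, with 21 and 12 lower and medians of −1.95 and −1.97. At *dbx1a* the promoter peak had 4.80 in *kdrl*:GFP+ cells against 6.74 in *kdrl*:GFP- cells (−1.93), and the next peak, annotated to intron 2 of 3, had 8.16 in *kdrl*:GFP+ cells against 9.99 in *kdrl*:GFP- cells (−1.82). The most negative *dbx1a* peak was also the farthest, 198 kb downstream, at 4.97 in *kdrl*:GFP+ cells against 9.51 in *kdrl*:GFP- cells (−4.54).

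At *dbx1b* the promoter had 5.66 in *kdrl*:GFP+ cells against 6.94 in *kdrl*:GFP- cells (−1.28), and the 6 peaks between 4.58 and 24.2 kb upstream were lower by more, with differences from −5.56 to −2.97. On the downstream side, 2 peaks were higher by over 3. The peak 23.5 kb downstream (chr25:14791513-14792035) had 6.30 in *kdrl*:GFP+ cells and the lowest value, 0.22, in *kdrl*:GFP- cells, a difference of 6.08, the largest of the gene in either direction. The peak 70.5 kb downstream (chr25:14838319-14839217) had 9.42 in *kdrl*:GFP+ cells against 6.17 in *kdrl*:GFP- cells (3.25). Both lie within the span of the gene model LOC100216314. The other 4 peaks more than 1 kb downstream were lower, with differences from −2.17 to −1.03, so both directions were found on the downstream side.

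The *barhl* genes encode BarH-like homeodomain factors of differentiating neurons. All 6 peaks of *barhl1b* were lower, with a median of −3.36, and the most negative, 7.41 kb downstream, had −0.36 in *kdrl*:GFP+ cells against 5.15 in *kdrl*:GFP- cells (−5.51). Its relative *barhl2* (chr6:21030149-21033977, plus strand) had the most peaks of the 35 genes, 26, with 20 lower and a median of −1.84. It also had the highest of all 311 differences. The peak 134 kb upstream (chr6:20895415-20896567) had 9.29 in *kdrl*:GFP+ cells and the lowest value, 0.22, in *kdrl*:GFP- cells, a difference of 9.07. The next gene body beyond *barhl2*, that of *znf326*, is 474 kb from this peak.

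The *barhl2* peaks are described by stretches of the chromosome. All 5 peaks more than 150 kb upstream were higher in *kdrl*:GFP+ cells, with differences from 1.43 to 3.11, and the highest of these, 173 kb upstream, had 6.46 in *kdrl*:GFP+ cells against 3.35 in *kdrl*:GFP- cells. All 19 peaks nearer than 130 kb on either side were lower. The limits of these stretches were set after the values were seen, so the counts are no measure of order. Between these stretches lay the peak with the difference of 9.07 and, 145 kb upstream (chr6:20884568-20885043), a peak with −0.36 in *kdrl*:GFP+ cells against 6.30 in *kdrl*:GFP- cells, a difference of −6.66. Peaks of opposite direction that are each at the lowest value of 1 population thus lay 11.2 kb apart.

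**Figure D3:**
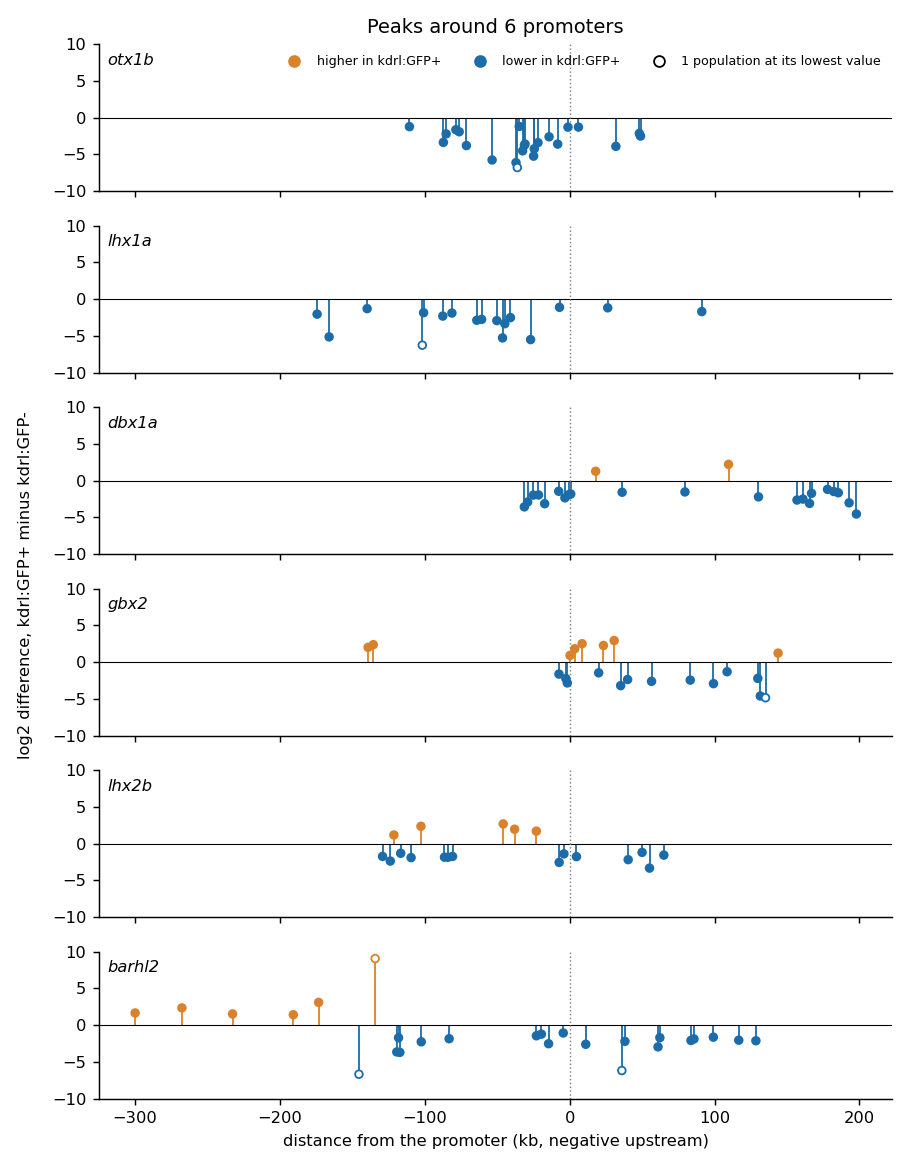
Difference in concentration (log2, *kdrl*:GFP+ minus *kdrl*:GFP-) of each peak on the y axis against its signed distance from the promoter in kb on the x axis, for 6 genes. Blue stems are lower and orange stems higher in *kdrl*:GFP+ cells, and open circles are peaks where 1 population is at its lowest value. All stems of *otx1b* and *lhx1a* point down, those of *gbx2* and *lhx2b* point both ways, and the 5 peaks more than 150 kb upstream of *barhl2* point up.

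The genes of the midbrain and its boundary with the hindbrain had 74 peaks, of which 63 were lower, with a median of −2.48. A difference below −3 was found at 27 of them (36.5%), against 13.3% of all peaks. Most of these 27 were at *otx1b* (13) and *otx2* (7), with 3 of the 6 peaks of *tal2*, 3 of the 21 of *gbx2* and 1 of the 4 of *gbx1*. The *otx* genes encode bicoid-type homeodomain factors of the forebrain and midbrain. All 23 peaks of *otx1b* (chr17:24146925-24152572, plus strand, current symbol *otx1*) were lower, with a median of −3.41. The most negative, 36.1 kb upstream (chr17:24110487-24111206), had −0.36 in *kdrl*:GFP+ cells against 6.44 in *kdrl*:GFP- cells (−6.80). Of the 13 *otx1b* peaks below −3, 9 lay in a stretch 20 to 55 kb upstream, which held 10 peaks. In this stretch 5 peaks had a concentration below 1 in *kdrl*:GFP+ cells. Its limits were set after the values were seen, so the count is no measure of clustering. The exception in that stretch, 34.7 kb upstream, had 6.05 in *kdrl*:GFP+ cells against 7.26 in *kdrl*:GFP- cells (−1.21).

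For *otx2* (current symbol *otx2b*), 19 of 20 peaks were lower, with a median of −2.59. The most negative peak, 24.7 kb downstream, had −0.36 in *kdrl*:GFP+ cells against 5.79 in *kdrl*:GFP- cells (−6.15). The *otx2* promoter was open in both populations, at 6.72 in *kdrl*:GFP+ cells against 7.85 in *kdrl*:GFP- cells (−1.13). Its only higher peak was the farthest downstream, 70.5 kb, at 8.57 in *kdrl*:GFP+ cells against 6.52 in *kdrl*:GFP- cells (2.05).

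The *gbx* genes encode homeodomain factors that oppose *otx2* at the midbrain-hindbrain boundary. Of the 4 *gbx1* peaks 3 were lower (median −2.07), with the largest difference 15.7 kb downstream at 0.23 in *kdrl*:GFP+ cells against 4.24 in *kdrl*:GFP- cells (−4.01). At *gbx2* (chr6:15948988-15952087, plus strand), 13 of 21 peaks were lower, with a median of −1.62, and 8 were higher, the most of any of the genes. The peak in the 5′ UTR, in exon 1 of 2 (chr6:15948677-15949900), had 8.94 in *kdrl*:GFP+ cells against 8.02 in *kdrl*:GFP- cells, a difference of 0.92. It was the only peak within 1 kb of a promoter that was higher in the endothelial cells. Including this peak, 5 of the 6 *gbx2* peaks up to 30.7 kb downstream were higher, and the 9 from 35.2 to 135 kb were all lower. The farthest downstream peak, at 144 kb, was higher again (1.23). Higher peaks also lay 139 and 135 kb upstream (2.01 and 2.38), so the directions did not follow distance alone. The peak 139 kb upstream lies in intron 17 of 17 of another gene, *drc11*. The peak 30.7 kb downstream had 9.91 in *kdrl*:GFP+ cells against 6.97 in *kdrl*:GFP- cells (2.94), and that 8.63 kb downstream had 9.30 in *kdrl*:GFP+ cells against 6.80 in *kdrl*:GFP- cells (2.51). The most negative, 135 kb downstream, had −0.36 in *kdrl*:GFP+ cells against 4.48 in *kdrl*:GFP- cells (−4.84).

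The gene *tal2*, a basic helix-loop-helix gene of midbrain GABAergic neurons in mice, had 5 lower peaks of 6 (median −2.18). Its promoter had 2.87 in *kdrl*:GFP+ cells against 5.91 in *kdrl*:GFP- cells (−3.04), and the most negative peak, 5.62 kb upstream, had −0.36 in *kdrl*:GFP+ cells against 5.07 in *kdrl*:GFP- cells (−5.43). A further *tal2* peak (chr5:9912080-9912887) was found only by its current symbol and is not among the 311. It was lower too, at 5.93 in *kdrl*:GFP+ cells against 8.33 in *kdrl*:GFP- cells (−2.39). The engrailed genes, homeobox genes of the midbrain-hindbrain boundary, appeared in the table under the older symbols *eng1a*, *eng2a* and *eng2b*. They were found through their accessions and are not among the 311 peaks. Of their 15 peaks, 13 were lower, with a median of −1.81. All 6 peaks of *en2a* were lower (median −1.64), as were 5 of 6 at *en1a* (median −2.26) and 2 of 3 at *en2b* (median −1.12). The lowest, 7.54 kb downstream of *en2b*, had 0.94 in *kdrl*:GFP+ cells against 5.44 in *kdrl*:GFP- cells (−4.50), and the highest, 11.9 kb downstream of *en1a*, had 4.46 in *kdrl*:GFP+ cells against 2.0 in *kdrl*:GFP- cells (2.46).

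Peaks were assigned by nearest promoter, so their distances and annotation also depend on how far apart the genes lie around these promoters. The 311 peaks were more often intergenic than the table, at 86.8% against 67.5%, and less often in introns, at 4.50% against 25.7%. Of the 14 intronic peaks, 10 lay in an intron of the factor itself and 4 in another gene. Promoter peaks as annotated made up 3.54% at the factors and 2.04% of the table. More of the factors' peaks lay upstream of the promoter (55.9%, against 43.6% of all peaks), and the median difference was −2.32 upstream and −1.82 downstream. Over all peaks it was −1.23 upstream and −1.15 downstream.

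Within 1 kb of a promoter, 13 peaks of 12 genes were found and 12 of them were lower, all but that of *gbx2*. Their median was −1.58. Except at *rx1* and *tal2*, these peaks had differences between −2.00 and 0.92, and the *kdrl*:GFP+ concentration was from 4.80 to 8.94. The largest share of differences below −3, 38.9%, was among the 108 peaks 10 to 50 kb away, which had a median of −2.51. The shares were 15.4% of 13 peaks up to 1 kb, 28.8% of 73 peaks at 1 to 10 kb, 21.7% of 60 peaks at 50 to 100 kb and 22.8% of 57 peaks over 100 kb. Over all peaks the shares in these classes, from near to far, were 6.03%, 12.1%, 14.2%, 14.1% and 12.8%, so the smallest share was also up to 1 kb and the largest also at 10 to 50 kb.

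**Figure D4:**
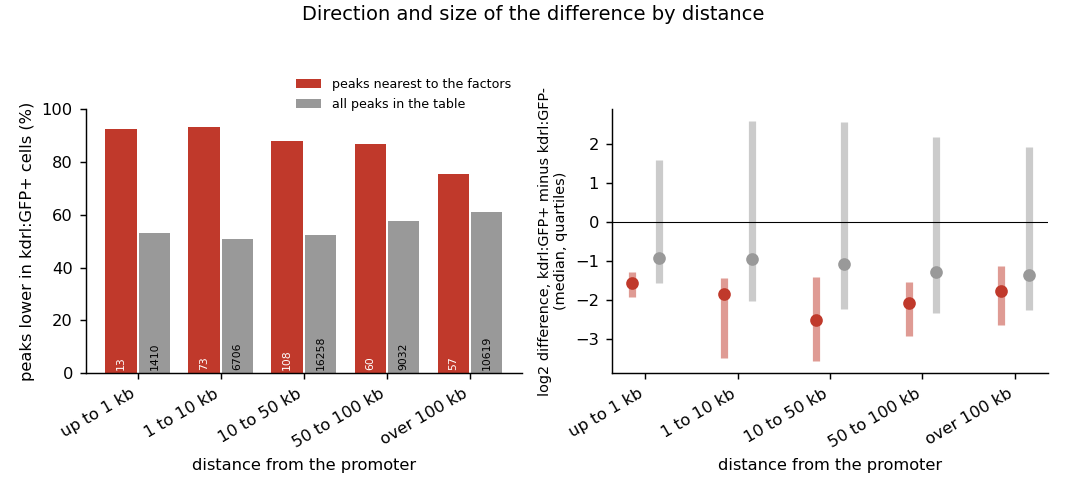
Left, share of peaks lower in *kdrl*:GFP+ cells (%) by distance from the promoter, for peaks nearest to the factors (red) and all peaks (grey), with the number of peaks in each bar. Right, median difference (log2) with quartiles in the same classes. At the factors the share lower is 92.3% up to 1 kb and 75.4% over 100 kb, and in the whole table it is 53.2% and 61.0%.

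The share of lower peaks at the factors was 92.3% up to 1 kb, 93.2% at 1 to 10 kb, 88.0% at 10 to 50 kb, 86.7% at 50 to 100 kb and 75.4% over 100 kb. The factors had 14 higher peaks over 100 kb away, of which 6 were at *barhl2*, the most of any gene. The others were spread over *gbx2*, *lhx2b*, *dbx1a*, *emx2* and *tal2*. The share of lower peaks over 100 kb without *barhl2* was not computed. In the whole table the share was lowest at 1 to 10 kb (50.9%) and highest over 100 kb (61.0%). The median distance was 70.5 kb for the 41 higher peaks at the factors and 26.6 kb for the 270 lower ones, while over all peaks it was 37.0 kb for higher and 46.7 kb for lower ones. Of the 41 higher peaks, 22 (53.7%) lay over 50 kb away, against 40.6% of all higher peaks, and 36 (87.8%) were intergenic, a share close to the 86.8% of all 311.

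The same direction was found at genes of related function. A list of 48 other brain and eye patterning genes, including *pax6a*, *pax3a*, *sox2*, *zic1*, *shha* and *fgf8a*, had 46 genes with peaks. Of its 595 peaks, 84.0% were lower, with a median of −2.04, 26.7% below −3 and 4.37% above 3. For neural markers, 9 of 10 genes had peaks, and 84.7% of 98 peaks were lower (median −2.35). The patterning genes had a median of −1.94 upstream of the promoter and −2.12 downstream. Neural markers had −2.1 upstream and −2.44 downstream, so the order in these lists was the reverse of that at the factors. For endothelial markers, 17 of 23 genes had peaks, and 85.9% of 149 peaks were higher (median 3.17). The vascular receptor gene *kdrl*, whose promoter drives the transgene, had 9 higher peaks of 10. Some other endothelial markers, named after their values were seen, were less uniform. Lower peaks were 4 of 9 at *cdh5*, 4 of 10 at *esama*, 4 of 15 at *dll4* and 2 of 5 at *tal1*. In all, 21 of the 149 peaks were lower. Over the endothelial list as a whole the direction was thus that of the labels, but not at every peak. Muscle markers had only 10 peaks at 5 genes, 60.0% of them lower (median −1.75). The lists overlap in *sox2* and *sox3*, and no test of a difference between lists was made. How far the share of neural cells among the *kdrl*:GFP- cells sets the values at the brain and eye factors was not tested.

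**Figure D5:**
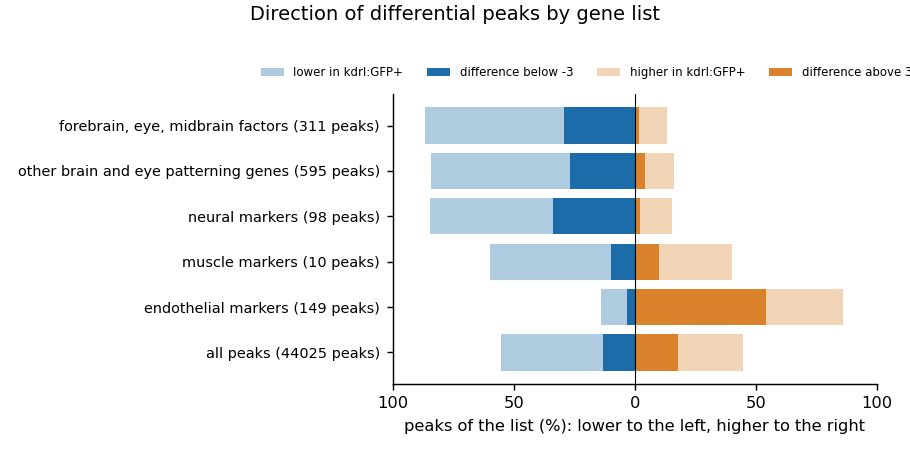
Share of peaks of each gene list (%), with peaks lower in *kdrl*:GFP+ cells to the left of 0 and higher ones to the right, for the brain and eye factors and 4 other gene lists above all 44025 peaks. Dark parts are differences below −3 or above 3. The factors (86.8% lower), other patterning genes (84.0%) and neural markers (84.7%) extend to the left and endothelial markers (85.9% higher) to the right.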

How the data were processed

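ATAC-seq libraries were grouped by their labels into *kdrl*:GFP+, *kdrl*:GFP- and genomic DNA control. The authors used Trimmomatic 0.32 for trimming and BWA 0.7.12 for mapping to Zv9, called peaks against the control and compared the populations with DiffBind (edgeR method). The deposited concentrations are log2 values of mean normalized reads per population, not scaled by peak width. The library scaling, the peak caller, duplicate removal and any shift for the transposase are not given in the sources used here. HOMER is among the tools named in the submitters' processing notes. The annotation, nearest promoter and distance of each peak are the authors'. Distances and gene lengths are deposited in bp.

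Members and lists were chosen with earlier results of these data known. Peaks were taken by the printed symbol. Current symbols came through RefSeq accessions (GRCz12tu, names only, 42145 peaks matched). Marker and patterning lists were matched by printed or current symbol. The difference is *kdrl*:GFP+ minus *kdrl*:GFP-, and counts use log2 thresholds of 0 and 3. Every gene with a peak is named, with its peak of largest absolute difference, each peak within 1 kb of a promoter and the 10 most positive peaks. Other peaks described, and the limits of the stretches at *barhl2*, *otx1b* and *gbx2*, were chosen after their values were seen.

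The authors' fold, p-value and FDR columns, which hold their own comparisons, were not used. A second deposited table compares WT and Mo columns. Its 6 per-sample columns match no sample label and were not used, and only its gene positions were taken. Motifs and protein identity were planned and not analysed here. Alternatives were current symbols, distance limits, peaks off the lowest value, centring, genes counted once, other thresholds and leaving out each gene. Scripts were tested on simulated data. Python 3.11.15, pandas 2.3.3, numpy 2.4.6, scipy 1.17.1 and matplotlib 3.10.9 were used.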

Additional observations from a re-analysis of the deposited data

How the results depend on the processing

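The 3 summary values are the share of lower peaks (86.8%), the median difference (−2.06) and the share below −3 (29.3%). Their intervals were 82.6 to 90.1%, −2.31 to −1.86 and 24.48 to 34.55%. Those of the shares count each peak as independent, although peaks share genes. All 3 summary values stayed within their intervals with the engrailed peaks and the further *tal2* peak added by current symbol (327 peaks). The same held without peaks at the lowest value (295 peaks), within 100 kb (254 peaks) and with each gene counted once. These settings reuse most of the same peaks, so staying within the intervals was likely beforehand and is given as description only. Within 50 kb the share lower was 90.2%, just outside its interval. Centring on the median of all peaks, a shift of −1.19, gave a share lower of 81.7%, a median of −0.88 and a share below −3 of 11.9%, where all peaks had 50.0% and 5.22%. The centred values all lay outside the intervals. At thresholds of 1, 2 and 4 the shares past them were 85.5%, 52.1% and 13.5%, against 53.9%, 29.3% and 6.02% of all peaks. Leaving out each of the 35 genes in turn gave medians from −2.16 to −2.02.

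No paired analysis was possible because the concentrations are population means with no column for a library. Leaving out a library was not possible for the same reason. The depth per library is unknown. Of the 24 peaks below −5, 20 had a concentration in *kdrl*:GFP+ cells below 1. Over all peaks, 2098 lay below 1 in that column and took only 10 values to 3 decimals, so the size of the largest negative differences is coarse.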

Other observations

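The patterning genes beside the factors were not uniform. All 13 peaks of *pax6a* (median −2.51) and all 13 of *pax6b* (median −2.21), paired box genes of the eye, had lower values in *kdrl*:GFP+ cells. The same held for all 18 of *pax3a* (median −3.19, lowest −7.69) and all 12 of *lmx1bb* (median −3.09). The zinc finger gene *zic2a* had 5 lower and 5 higher peaks (median 0.32, highest 7.13). The hypothalamic gene *sim1a* had 12 lower and 9 higher peaks (median −1.14), and the homeobox gene *irx5a* had 24 lower and 13 higher (median −1.49). Among neural markers, *neurod1* had 4 peaks of each direction and *neurog1* 16 lower peaks of 16 (median −3.20). These genes were named after their values were seen.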
